A study of Homo sapiens with 9 samples.

Results

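The let-7 guide strands are the 9 mature miRNAs hsa-let-7a-5p, hsa-let-7b-5p, hsa-let-7c-5p, hsa-let-7d-5p, hsa-let-7e-5p, hsa-let-7f-5p, hsa-let-7g-5p, hsa-let-7i-5p and hsa-miR-98-5p. They were chosen by name and not by their level, and they make up 9 of the 1198 mature miRNAs counted. All 9 passed the filter on low counts, which kept 367 miRNAs for testing. The study asked which miRNAs differ in colorectal carcinoma cells that have become resistant to chemotherapy. HCT116 is an established human colorectal carcinoma line and served as the parental line without selected resistance. The sublines HCT-FU-c and HCT-Oxa-c were derived from it by continuous exposure to rising doses of 5-fluorouracil, an antimetabolite, or of oxaliplatin, a platinum drug that damages DNA. Total RNA of 3 cultures per line was made into small RNA libraries and sequenced on an Illumina MiSeq, which gave 9 libraries. According to the sample labels, all 3 lines were grown in the same medium with fetal bovine serum. There is 1 subline for each drug and its replicates are cultures of that subline, so every p-value measures the spread between cultures.

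The let-7 family is a set of miRNAs with a common seed, the stretch near the 5′ end that pairs with target mRNAs. Its members act as brakes on growth and promote differentiation, and their known targets include RAS genes, MYC, HMGA2 and LIN28. LIN28 proteins in turn block the maturation of let-7 precursors, and a loss of let-7 with high RAS activity is a well-known feature of many carcinomas, colorectal carcinoma among them. Each guide strand is the arm of a hairpin that is loaded into the silencing complex, and the other arm, the passenger strand, is mostly degraded.

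The mature sequences show how little separates the members, which bears on how their reads can be told apart. They come from RefSeq for GRCh38.p14, where 9 of 9 members were found, and are written 5′ to 3′ with the seed (bases 2 to 8) in capitals.
hsa-let-7f-5p: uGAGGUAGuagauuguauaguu
hsa-let-7a-5p: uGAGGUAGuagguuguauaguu
hsa-let-7g-5p: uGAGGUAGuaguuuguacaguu
hsa-let-7i-5p: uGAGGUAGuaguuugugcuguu
hsa-miR-98-5p: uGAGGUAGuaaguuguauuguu
hsa-let-7d-5p: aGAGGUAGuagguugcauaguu
hsa-let-7b-5p: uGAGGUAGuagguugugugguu
hsa-let-7e-5p: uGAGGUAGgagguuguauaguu
hsa-let-7c-5p: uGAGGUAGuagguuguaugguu

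The species prefix hsa is left out from here on. All 9 sequences were 22 bases long and carried the seed GAGGUAG. No other miRNA of the table carried it among the 1059 with a sequence, so among these the 9 members held 100.0% of the counts of miRNAs with this seed. Positions are counted from 1 at the 5′ end, with the base of let-7a-5p given before the position. From let-7a-5p, let-7f-5p differed by G12A, let-7c-5p by A19G and let-7e-5p by U9G. let-7b-5p differed from it by A17G and A19G, let-7d-5p by U1A and U16C, let-7g-5p by G12U and U18C, and miR-98-5p by G11A and A19U. let-7i-5p was the most distant from let-7a-5p, with G12U, A17G, U18C and A19U. Of all pairs of members, 4 differed at 1 base, namely let-7a-5p with let-7c-5p, let-7e-5p and let-7f-5p, and let-7b-5p with let-7c-5p. How many mismatches the authors' alignment allowed is not given in the sources used here, so the split of reads within these 4 pairs is uncertain. Sums over the family do not depend on that split.

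The 9 guide strands come from 12 hairpins, 3 for let-7a-5p, 2 for let-7f-5p and 1 for each other member. On chromosome 9, MIRLET7A1 (94175957 to 94176036), MIRLET7F1 (94176347 to 94176433) and MIRLET7D (94178834 to 94178920) lie together in intron 1 of the lincRNA gene AL158152.2 (GRCh38, GENCODE 29). MIRLET7A2 lies on chromosome 11 (122146522 to 122146593) in intron 2 of MIR100HG, the host of miR-100 and miR-125b-1. MIRLET7A3 (46112749 to 46112822) and MIRLET7B (46113686 to 46113768) lie on chromosome 22 in exon 5 of MIRLET7BHG. MIRLET7C lies on chromosome 21 (16539828 to 16539911) in intron 1 of MIR99AHG, beside miR-99a. MIRLET7E lies on chromosome 19 (51692786 to 51692864) between miR-99b and miR-125a, and only the antisense gene SPACA6P-AS overlaps it. MIR98 (53556223 to 53556341) and MIRLET7F2 (53557192 to 53557274) lie on the X chromosome in intron 60 of HUWE1, which encodes a ubiquitin ligase. MIRLET7G lies on chromosome 3 (52268278 to 52268361) in intron 2 of WDR82, and MIRLET7I on chromosome 12 (62603686 to 62603769) in intron 1 of AC048341.1.

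For HCT116 the libraries of replicates 1, 2 and 3 held 1423526, 1414341 and 856383 counts. For HCT-FU-c they held 1230774, 1487737 and 919675, and for HCT-Oxa-c 1950307, 2207538 and 1088268. A miRNA with a count of 0 could still have been present at up to 3 counts per library, or 1.34 to 4.01 CPM (counts scaled to a library of 1e+06 by TMM), which matters little for let-7, whose scarcest member had at least 18 counts in every library. Such limits, and the intervals given for shares, cover counting error only, since PCR copies were not marked by molecular identifiers. miR-21-5p, a miRNA abundant in carcinomas, took 40.0% to 57.1% of the counts of a library. Epithelial miRNAs were visible in all libraries, mainly miR-200c-3p and miR-200b-3p. Of 8 epithelial miRNAs on the marker list 8 were counted, none was at 0 in any library, and their summed level ran from 19517 to 26030 CPM, with miR-200c-3p the most abundant in every library except HCT-Oxa-c replicate 1, where miR-200b-3p was. Other miRNAs of the list were scarce, with means of 105 CPM for miR-194-5p and 48.3 CPM for miR-192-5p. miR-215-5p had 1 to 18 counts and did not pass the filter. The mesenchymal miRNA miR-143-3p had a mean of 222 CPM, above these 3.

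The replicate 3 libraries of all 3 lines stood apart from the others, and this touches most let-7 values. Deviations of log2 CPM from the mean of the line, over the tested miRNAs, correlated at 0.74 to 0.76 between replicate 3 libraries of different lines, while every pair of a replicate 3 library with a library of another number and line gave a negative value, from -0.68 to -0.50. The 3 deviations of a line sum to 0. These negative values, and the positive ones among replicates 1 and 2, therefore follow in part from the centring. Replicate 1 libraries correlated with replicate 2 libraries of other lines at 0.42 to 0.61, beside 0.41 to 0.65 for pairs with the same number of 1 or 2, so the values set replicate 3 apart but do not pair the libraries of replicates 1 and 2 by number. Replicates of a line differed by more than sampling noise, with a chi-square per degree of freedom of 9.71 to 84.8 for replicates 1 and 2 and of 176 to 385 where replicate 3 was in the pair. That noise covers counting error only and not the spread between separate cultures, so the values serve as a description. The replicate 3 libraries also had the 3 lowest total counts and the 3 lowest TMM factors (0.874, 0.913 and 0.896 in HCT116, HCT-FU-c and HCT-Oxa-c). The labels name no batch, date or sequencing run. By the paper's methods a sequencing run held only part of the libraries, and which of them shared a run is not given in the sources used here. Calls between the lines below are therefore also given with the replicate number as a block. Some are also given for replicates 1 and 2 only, a choice made after seeing the data.

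The family took a sizeable part of all miRNA counts in every line. In HCT116 the 9 guide strands held 5.31%, 6.99% and 12.2% of the counts of replicates 1, 2 and 3. In HCT-FU-c they held 8.81%, 9.05% and 11.2%, and in HCT-Oxa-c 8.97%, 8.55% and 12.1%. The 95% Wilson intervals of these shares were at most 0.0693 percentage points to either side. The highest share of each line was that of replicate 3, and HCT116 replicate 1 had the lowest share of all libraries.

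Within the family, let-7f-5p was the most abundant guide strand, with a mean share of 36.3% ± 9.89 (SD, n = 9 libraries) of the family's counts. let-7a-5p, whose sequence is shared with the founding let-7 of the nematode, followed with 29.2% ± 2.94. let-7g-5p held 16.0% ± 6.40 and let-7i-5p 10.8% ± 3.94. The 4 most abundant members ranked 4, 5, 10 and 17 by mean CPM among all miRNAs of the table. miR-98-5p, a let-7 by its seed in spite of its name, had a mean share of 4.41%, let-7d-5p 1.55%, let-7b-5p 0.923%, let-7e-5p 0.783% and let-7c-5p 0.0363%. With the counts of each line summed instead, or with the passenger strands in the denominator, the mean share of let-7f-5p was 36.0% or 36.1%.

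The order of the members was nearly the same in all libraries. let-7f-5p had the highest count in 8 of 9 libraries, and let-7a-5p had it in HCT116 replicate 2. In CPM, let-7f-5p (12782 to 69905) overlapped with let-7a-5p (12130 to 39700), and let-7a-5p with let-7g-5p (10564 to 16499), so these neighbours in the order did not separate beyond their spread. let-7g-5p, let-7i-5p (7317 to 10262), miR-98-5p (1890 to 6872) and let-7d-5p (890 to 1765) did not overlap with each other over the 9 libraries. let-7d-5p overlapped with let-7b-5p (471 to 1011), and let-7b-5p with let-7e-5p (474 to 1049), while let-7c-5p (12.2 to 64.3) lay below every other member. All members have the same length, but how readily each was ligated during library preparation was not measured.

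**Figure D1:**
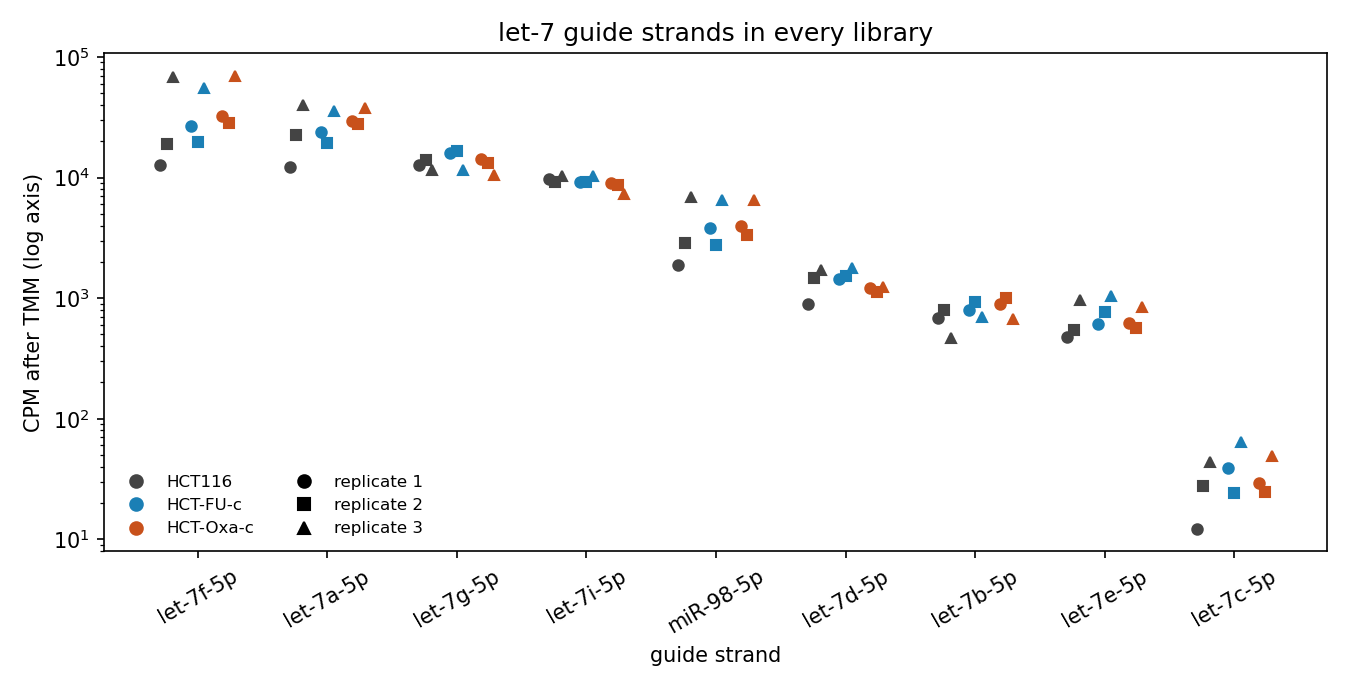
CPM after TMM normalization (log axis) of the 9 guide strands in each library, coloured by line and shaped by replicate number. The members span from 12.2 CPM for let-7c-5p to 69905 CPM for let-7f-5p, and the replicate 3 libraries lie highest for let-7f-5p, let-7a-5p, miR-98-5p, let-7d-5p, let-7e-5p and let-7c-5p in each line (under total counts not for let-7d-5p and let-7e-5p).

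The plot of all members by library shows that the family as a whole spans a far wider range than the libraries of any 1 member. It also shows the triangles of replicate 3 above the other points of their line for 6 members, with let-7d-5p among them by a small margin in HCT-Oxa-c, and below them for let-7g-5p and let-7b-5p. How many of all tested miRNAs had such an order was not counted, so it is not read as a trait of the family. By edgeR, 45.5% of all tested miRNAs differed between replicate numbers at an adjusted p below 0.05. Under total counts let-7d-5p and let-7e-5p were no longer highest in replicate 3 of each line, which left 4 members, and let-7i-5p joined the lowest.

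The mean shares of let-7f-5p, let-7g-5p and let-7i-5p differed more between replicate numbers than between lines. Those of let-7a-5p, let-7c-5p and let-7e-5p differed more between lines. The share of let-7f-5p was 24.9%, 27.1% and 48.8% in replicates 1, 2 and 3 of HCT116. In HCT-FU-c it was 32.4%, 27.6% and 45.0%, and in HCT-Oxa-c it was 35.1%, 33.8% and 51.8%. The means of HCT116 (33.6% ± 13.2, SD, n = 3), HCT-FU-c (35.0% ± 8.96, n = 3) and HCT-Oxa-c (40.2% ± 10.0, n = 3) lay within 1 SD of each other. These SDs take in the offset of replicate 3. Within each replicate number the share was highest in HCT-Oxa-c. All 3 replicate 3 libraries were above the 6 others, which spanned 24.9% to 35.1%, and over replicates 1 and 2 only the mean share of let-7f-5p was 30.2% ± 4.13 (SD, n = 6).

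let-7g-5p took the opposite course. Its share was 24.8%, 19.7% and 8.21% in replicates 1, 2 and 3 of HCT116. In HCT-FU-c it was 19.4%, 23.3% and 9.36%, and in HCT-Oxa-c it was 15.6%, 15.6% and 7.83%. Within each replicate number the share of let-7g-5p was lowest in HCT-Oxa-c. The replicate 3 libraries were again separate from the others, with a mean of 8.47% ± 0.799 (n = 3) against 19.7% ± 3.81 (n = 6). let-7a-5p kept a share between 23.7% and 33.2% in all 9 libraries, with 29.6% ± 3.64 in replicates 1 and 2 and 28.5% ± 0.521 in replicate 3. let-7i-5p held 5.42% to 8.34% in replicate 3 and 9.90% to 19.0% in the other libraries. The 95% Wilson intervals of these 4 shares were at most 0.308 percentage points to either side.

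**Figure D2:**
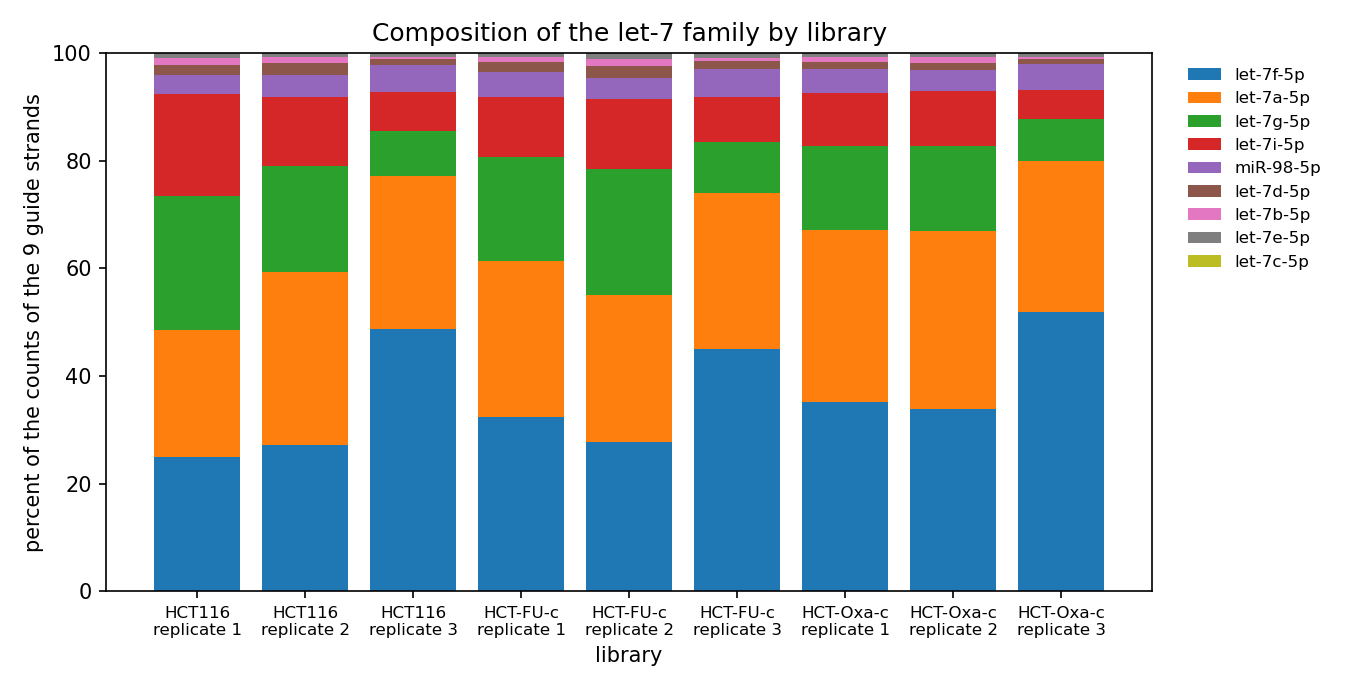
Percent of the counts of the 9 guide strands held by each member, stacked for each library. let-7f-5p holds 45.0% to 51.8% in the replicate 3 libraries and 24.9% to 35.1% in the others.

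The stacked bars of the composition show the same picture in every line, with a wider let-7f-5p segment and narrower let-7g-5p and let-7i-5p segments in replicate 3. Ratios of counts within a library do not depend on scaling. For HCT116 the ratio of let-7f-5p to let-7g-5p was 1.01, 1.38 and 5.94 in replicates 1, 2 and 3. For HCT-FU-c it was 1.67, 1.18 and 4.80, and for HCT-Oxa-c it was 2.26, 2.16 and 6.62. In every line the ratio was highest in replicate 3. Among replicates 1 and 2 it was higher in both HCT-Oxa-c libraries than in the 4 libraries of HCT116 and HCT-FU-c. Within replicate 3 it was also highest in HCT-Oxa-c. The ratio of let-7f-5p to miR-98-5p, which share a locus in HUWE1, ranged from 6.66 to 10.7 over the 9 libraries. let-7c-5p amounted to 0.0879% to 0.180% of let-7a-5p and let-7e-5p to 2.02% to 3.99% of it.

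The mean summed levels of the family in the 3 lines lay within 1 SD of each other, but these SDs take in the offset of replicate 3. It was 51275, 70549 and 139654 CPM in replicates 1, 2 and 3 of HCT116. In HCT-FU-c it was 81938, 70687 and 122947 CPM, and in HCT-Oxa-c it was 91711, 84330 and 134973 CPM. HCT116 had a mean of 87159 ± 46472 CPM (SD, n = 3), HCT-FU-c of 91857 ± 27506 CPM (n = 3) and HCT-Oxa-c of 103671 ± 27358 CPM (n = 3). The libraries of any 2 lines overlapped, and replicate 3 was the highest library of each line. Without replicate 3 the means were 60912, 76312 and 88020 CPM in HCT116, HCT-FU-c and HCT-Oxa-c. In replicates 1 and 2 both HCT-Oxa-c libraries lay above all libraries of HCT116 and HCT-FU-c, while in replicate 3 HCT116 was highest.

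Between HCT-Oxa-c and HCT116 the difference of the mean log2 sums was 0.35, and it was 0.84, 0.26 and -0.05 within replicate numbers 1, 2 and 3. Between HCT-FU-c and HCT116 it was 0.17, with 0.68, 0.0028 and -0.18 within the numbers. Both comparisons share the HCT116 libraries, and HCT116 replicate 1 was the lowest library of all. Between HCT-Oxa-c and HCT-FU-c the difference was 0.18, with 0.16, 0.25 and 0.13 within the numbers. The 3 differences stayed positive under each scaling tried, with 0.20 to 0.37 and 0.11 to 0.33 against HCT116 and 0.02 to 0.26 between the sublines. They turned negative where 1 library was left out, to -0.15 for HCT-FU-c against HCT116 without HCT116 replicate 1, to -0.07 without HCT-FU-c replicate 3, and to -0.02 for HCT-Oxa-c against HCT-FU-c without HCT-Oxa-c replicate 3. For HCT-Oxa-c against HCT116 the lowest value was 0.03 without HCT116 replicate 1, and the highest 0.75 without HCT116 replicate 3. Without let-7f-5p the other 8 members summed to 53806 ± 16640 CPM for HCT116, 58077 ± 8567 CPM for HCT-FU-c and 60138 ± 4655 CPM for HCT-Oxa-c. In bulk RNA, fewer cells with a miRNA and less of it in each cell cannot be told apart.

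**Figure D3:**
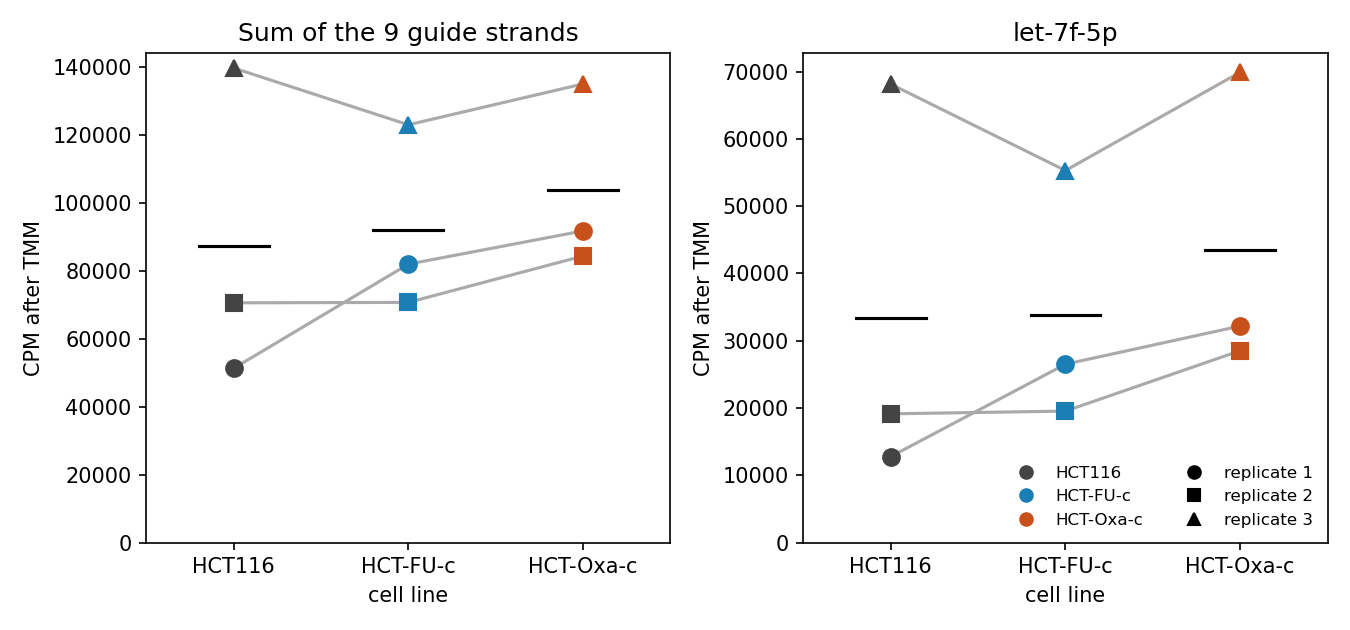
CPM after TMM normalization of the 9 guide strands summed (left) and of let-7f-5p (right) by line, with a symbol for each library, grey lines that join libraries of the same replicate number and black bars for the means. The means of the sum are 87159, 91857 and 103671 CPM in HCT116, HCT-FU-c and HCT-Oxa-c, and replicate 3 lies above replicates 1 and 2 in each line.

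The plot of the sum and of let-7f-5p places the lines side by side. The grey line of replicate 3 lies well above those of replicates 1 and 2 in both panels, and within replicates 1 and 2 the HCT-Oxa-c libraries lie highest in both panels.

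The first comparison asked whether let-7 levels differ in the oxaliplatin-resistant subline. The level of let-7f-5p was 12782, 19138 and 68140 CPM in HCT116 and 32181, 28513 and 69905 CPM in HCT-Oxa-c. The level of let-7a-5p was 12130, 22726 and 39700 CPM in HCT116 and 29442, 27976 and 37879 CPM in HCT-Oxa-c. In replicates 1 and 2 both strands were higher in HCT-Oxa-c than in HCT116, while in replicate 3 the lines were nearly level, and over all replicates the libraries of the lines overlapped. The level of let-7g-5p was 12694, 13865 and 11472 CPM in HCT116 and 14271, 13194 and 10564 CPM in HCT-Oxa-c. The level of let-7i-5p was 9723, 9110 and 10262 CPM in HCT116 and 9082, 8617 and 7317 CPM in HCT-Oxa-c. let-7g-5p overlapped between the lines, and let-7i-5p was lower in each HCT-Oxa-c library than in each HCT116 library, by a small margin.

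By edgeR with Benjamini-Hochberg (BH) adjustment, 0 of 9 guide strands passed the threshold of 0.05 between HCT-Oxa-c and HCT116, beside 2.45% of all tested miRNAs. At an unadjusted edgeR p below 0.05 the count was 0, beside 38 of 367 tested miRNAs. By DESeq2 with BH adjustment it was 0, beside 6.27% of all tested miRNAs. let-7f-5p had a log2 fold change of 0.38 (SE 0.66, edgeR BH-adjusted p = 0.990). For let-7a-5p it was 0.35 (SE 0.41, edgeR BH-adjusted p = 0.953), with 0.06 without HCT116 replicate 1 and 0.84 without HCT116 replicate 3. For let-7g-5p it was -6.7e-05 (SE 0.22, edgeR BH-adjusted p = 1.00), and for let-7i-5p -0.22 (SE 0.18, edgeR BH-adjusted p = 0.875). The other 5 members ranged from -0.19 to 0.40. Of the 9 members 6 had a positive and 3 a negative value, with 7 and 2 under RLE size factors, where let-7g-5p turned to 0.02, and with 4 and 5 without HCT116 replicate 1 or without HCT-Oxa-c replicate 3. Their median was 0.25 beside -0.01 over all tested miRNAs. let-7i-5p was the 1 member whose libraries did not overlap between these lines, a property of 16.1% of the tested miRNAs.

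With the replicate number as a block, 1 of 9 members was called in this comparison, beside 14.7% of all tested miRNAs. This was let-7f-5p, which was higher in HCT-Oxa-c by a log2 fold change of 0.61 (SE 0.20, edgeR BH-adjusted p = 0.0447). Within replicate numbers 1, 2 and 3 its log2 ratio was 1.33, 0.58 and 0.04, positive in 3 of 3 pairs. With replicates 1 and 2 only the fold change was 0.94 (SE 0.21, edgeR BH-adjusted p = 0.00936), beside 11.3% of tested miRNAs called, and DESeq2 with the block gave 0.64 (BH-adjusted p = 0.0309). Over the 15 alternatives that had no block and used all replicate numbers, among them DESeq2 and leaving out each library, the edgeR or DESeq2 BH-adjusted p of let-7f-5p ranged from 0.302 to 0.999, and it passed in 0. Without a block its log2 fold change was 1.42 without HCT116 replicate 3 and -0.08 without HCT-Oxa-c replicate 3. Leaving out either of these leaves the replicate numbers unbalanced between the lines. let-7a-5p had 0.47 (SE 0.20) with the block and did not pass (edgeR BH-adjusted p = 0.136, from 0.136 to 0.999 over the alternatives). With replicates 1 and 2 only, which that range leaves out, it had 0.74 (edgeR BH-adjusted p = 0.0618) and did not pass.

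The next comparison put the same question to the 5-fluorouracil-resistant subline. In HCT-FU-c the level of let-7f-5p was 26509, 19541 and 55292 CPM, and that of let-7a-5p was 23725, 19394 and 35768 CPM. Both strands lay inside the range of the HCT116 libraries in every HCT-FU-c library, a range whose upper end is HCT116 replicate 3. Within replicate numbers 1, 2 and 3 the log2 ratio of HCT-FU-c to HCT116 was 1.05, 0.03 and -0.30 for let-7f-5p. For let-7a-5p it was 0.97, -0.23 and -0.15. The level of let-7g-5p was 15891, 16499 and 11511 CPM, and that of let-7i-5p was 9137, 9215 and 10249 CPM. HCT-FU-c had the 2 highest let-7g-5p libraries of the series, in replicates 1 and 2, and its let-7i-5p libraries lay inside the range of HCT116.

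Between HCT-FU-c and HCT116, edgeR with BH adjustment called 0 of 9 guide strands, beside 0.0% of all tested miRNAs. At an unadjusted edgeR p below 0.05 the count was 0, beside 15 of 367 tested miRNAs. By DESeq2 with BH adjustment it was 0, beside 1.09% of all tested miRNAs. The log2 fold change of let-7f-5p was 0.02 (SE 0.66, edgeR BH-adjusted p = 0.997) and that of let-7a-5p 0.08 (SE 0.41, edgeR BH-adjusted p = 0.997). That of let-7g-5p was 0.21 (SE 0.22, edgeR BH-adjusted p = 0.997) and that of let-7i-5p -0.02 (SE 0.18, edgeR BH-adjusted p = 0.997). The other 5 members ranged from 0.17 to 0.61. Of the 9 members 8 had a positive and 1 a negative value, with 9 and 0 under total counts, where let-7i-5p turned to 0.14, with 4 and 5 without HCT116 replicate 1, and with 5 and 4 without HCT116 replicate 2 or without HCT-FU-c replicate 3. Their median was 0.21 beside 0.02 over all tested miRNAs. Scaling by total counts moved the median of all tested miRNAs in this comparison from 0.02 to 0.19, so values under it stand against that shift. No member had libraries that did not overlap between the lines, beside 8.72% of all tested miRNAs, but under total counts 1 member did, let-7d-5p, which was then higher in HCT-FU-c, beside 10.9%. With the replicate block 0 of 9 were called, beside 5.45% of all tested miRNAs. The log2 fold change was then 0.23 for let-7f-5p and 0.16 for let-7a-5p. With replicates 1 and 2 only it was 0.47 and 0.25, and 0 of 9 were called, beside 3.42% of tested miRNAs.

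The last comparison set the sublines against each other. In each of the 3 replicate numbers, the HCT-Oxa-c library had more let-7f-5p and let-7a-5p than the HCT-FU-c library and less let-7g-5p and let-7i-5p, but the libraries of the lines overlapped for 3 of these 4 strands. The exception was let-7i-5p, with 7317 to 9082 CPM in HCT-Oxa-c and 9137 to 10249 CPM in HCT-FU-c. By edgeR with BH adjustment 0 of 9 members were called between HCT-Oxa-c and HCT-FU-c, beside 4.36% of all tested miRNAs. At an unadjusted edgeR p below 0.05 the count was 0, beside 62 of 367 tested miRNAs. By DESeq2 with BH adjustment it was 0, beside 11.7% of all tested miRNAs.

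The log2 fold change of let-7f-5p between the sublines was 0.37 (SE 0.66, edgeR BH-adjusted p = 0.838) and that of let-7a-5p 0.27 (SE 0.41, edgeR BH-adjusted p = 0.826). That of let-7g-5p was -0.21 (SE 0.22, edgeR BH-adjusted p = 0.735) and that of let-7i-5p -0.19 (SE 0.18, edgeR BH-adjusted p = 0.698). The other 5 members ranged from -0.41 to 0.08. Of the 9 members 4 had a positive and 5 a negative value, with 2 and 7 under total counts, a scaling that moved the median of all tested miRNAs from -0.07 to -0.26. The tally was 6 and 3 without HCT-FU-c replicate 3 and 2 and 7 without HCT-Oxa-c replicate 3. With the replicate block 0 of 9 were called, beside 26.4% of all tested miRNAs. The log2 fold change was then 0.38 for let-7f-5p and 0.31 for let-7a-5p. With replicates 1 and 2 only it was 0.47 and 0.48, and 0 of 9 were called, beside 17.6% of tested miRNAs. The libraries did not overlap for 2 members, let-7d-5p and let-7i-5p, both lower in HCT-Oxa-c, beside 22.9% of all tested miRNAs. Under RLE size factors, or with TMM factors computed without the 9 members, 1 member of these was separate, namely let-7d-5p. let-7d-5p, named here after its values were seen, had 1217, 1115 and 1241 CPM in HCT-Oxa-c, 1438, 1536 and 1765 CPM in HCT-FU-c, and 890, 1468 and 1723 CPM in HCT116. The HCT116 libraries overlapped with those of both sublines.

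**Figure D4:**
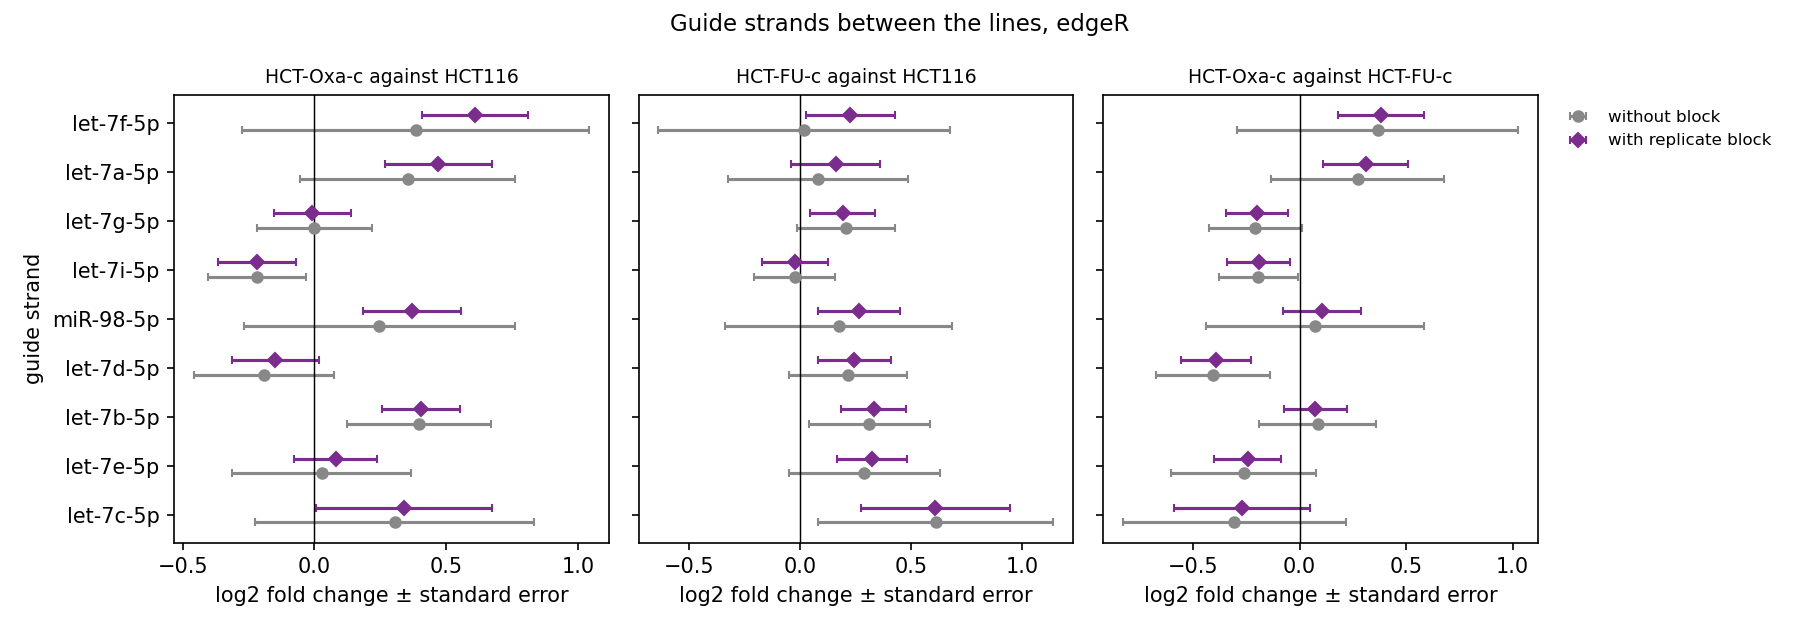
Log2 fold changes of the 9 guide strands with their standard errors in the 3 comparisons of lines, from edgeR without a block (grey circles) and with the replicate number as a block (purple diamonds). The standard error of let-7f-5p between HCT-Oxa-c and HCT116 is 0.66 without the block and 0.20 with it, around log2 fold changes of 0.38 and 0.61.

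The plot of fold changes shows that the block moved the estimates little beside its effect on their errors. The biological coefficient of variation over all tested miRNAs was 0.458 without the block and 0.174 with it.

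The largest differences in the family lay between replicate numbers, not between lines. In a model with line and replicate number, edgeR with BH adjustment called 6 of 9 guide strands for the replicate number, beside 45.5% of all tested miRNAs. This test takes in any difference among the 3 numbers, and the direction is given as replicate 3 against the mean of replicates 1 and 2. By that direction 5 of the called members were higher in replicate 3 and 1 was lower, beside 92 and 75 of all tested miRNAs. DESeq2 with BH adjustment called 7 of 9 members, 5 higher and 2 lower, beside 43.3% of all tested miRNAs. The median of the 9 members was 0.68 beside 0.02 over all tested miRNAs. This pattern was looked for with earlier results of these data known.

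let-7f-5p had 12782, 23025 and 32181 CPM as the lowest, the median and the highest of the 6 libraries of replicates 1 and 2, and 55292, 68140 and 69905 CPM in the 3 replicate 3 libraries. miR-98-5p had 1890, 3093 and 3980 CPM in the former and 6511, 6556 and 6872 CPM in the latter. let-7a-5p had 12130, 23226 and 29442 CPM in the former and 35768, 37879 and 39700 CPM in the latter. For each of these 3 strands all replicate 3 libraries lay above all others. The log2 difference of replicate 3 from replicates 1 and 2 was 1.54 for let-7f-5p (edgeR BH-adjusted p = 4.3e-07, from 7.6e-24 to 0.00147 over the alternatives), with 2.09, 1.26 and 1.20 in HCT116, HCT-FU-c and HCT-Oxa-c. For miR-98-5p it was 1.13 (edgeR BH-adjusted p = 9.5e-06, from 1.9e-13 to 0.00425 over the alternatives). For let-7a-5p it was 0.79 (edgeR BH-adjusted p = 0.00182, from 5.5e-08 to 0.0923 over the alternatives), with 1.19, 0.73 and 0.40 in the same lines. Between replicates 2 and 1, let-7f-5p differed by -0.05.

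let-7c-5p and let-7e-5p were also higher in replicate 3, with 1.01 and 0.68 and the same sign in 3 of 3 lines. let-7b-5p was lower, by a log2 difference of -0.48 (edgeR BH-adjusted p = 0.00696, from 0.000492 to 0.0479 over the alternatives), and lowest in replicate 3 of each line. let-7g-5p had -0.36 (edgeR BH-adjusted p = 0.0723, from 0.00234 to 0.223 over the alternatives), let-7d-5p 0.30 and let-7i-5p 0.01, and these 3 did not pass. let-7g-5p passed under total counts (-0.60), by DESeq2 (-0.38), without a filter (-0.53) and without HCT116 replicate 1 (-0.41), while let-7i-5p turned to -0.01 under RLE size factors and by DESeq2, to -0.24 under total counts and to -0.15 without a filter. Total counts moved the median of all tested miRNAs for replicate 3 from 0.02 to -0.23, and dropping the filter moved it to -0.61. Without HCT116 replicate 3, 4 of 9 members were called, beside 34.1% of all tested miRNAs, and let-7a-5p (0.55) and let-7c-5p were no longer among them. let-7c-5p was also lost, with 5 of 9 members called, without HCT-FU-c replicate 3, without HCT-Oxa-c replicate 1 or without HCT-Oxa-c replicate 3, beside 33.8%, 35.3% and 36.7% of all tested miRNAs, and it was lost under total counts. Without HCT-FU-c replicate 2, let-7d-5p was called as well, which gave 7 of 9 beside 43.8% of all tested miRNAs, and without HCT116 replicate 1, let-7g-5p was called as well, which gave 7 of 9 beside 42.7%.

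Some features of the sequences can be set beside these differences. let-7f-5p and miR-98-5p, with the 2 highest values, had the lowest GC content of the family, 31.8%. let-7b-5p, with the lowest value, had the highest, 45.5%. let-7a-5p and let-7g-5p had 36.4% each and lay on opposite sides of 0, and the 4 members with 40.9% ranged from 0.01 to 1.01. Over the 9 members Pearson's r between GC content and the replicate 3 difference was -0.66, and over the 319 tested miRNAs outside the family with a sequence it was -0.07. These are correlations across miRNAs of the same libraries and serve as a description. The part of GC content in the let-7 differences was not tested beyond these values.

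**Figure D5:**
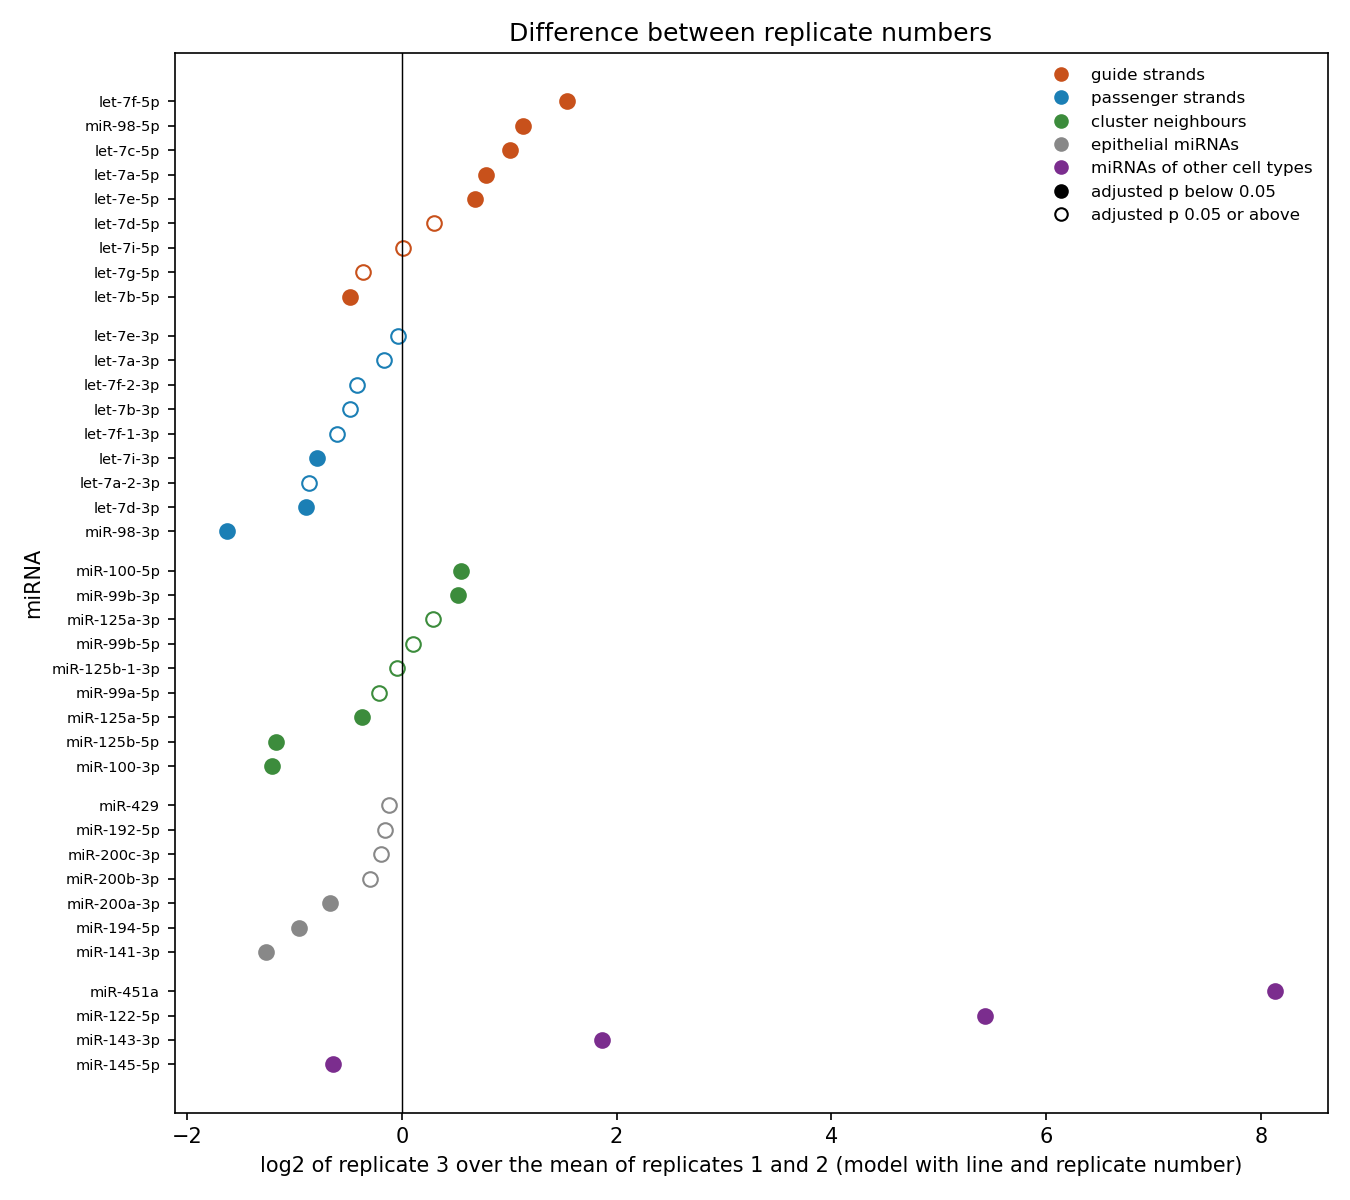
Log2 of replicate 3 over the mean of replicates 1 and 2, from an edgeR model with line and replicate number, for guide strands, passenger strands, cluster neighbours, epithelial miRNAs and miRNAs of other cell types, with filled points for a BH-adjusted p below 0.05 in the test of any difference among the 3 numbers. Guide strands run from -0.48 to 1.54, all 9 passenger strands lie below 0, and the points of miR-451a and miR-122-5p rest on 0 to 7 counts in replicates 1 and 2 and are no measure of fold or valid call.

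The plot of differences between replicate numbers sets the guide strands beside 4 other lists. Of the passenger strands, 10 of 11 were in the table (let-7c-3p was not) and 9 were tested (let-7g-3p was not). All 9 had a negative value in replicate 3 under each scaling, let-7e-3p the smallest (-0.03, but positive without HCT-FU-c replicate 1 and, at 0.56, without HCT-FU-c replicate 3), and 3 of 9 were called for the replicate number, beside 45.5% of all tested miRNAs. These were miR-98-3p (-1.63) and let-7d-3p (-0.89), which were lowest in replicate 3 of each line, and let-7i-3p (-0.79), which was lowest in replicate 3 of 1 line and differed by 0.70 between replicates 2 and 1, so that its call is not 1 of replicate 3 alone. miR-98-3p and let-7d-3p passed in 14 of 14 alternatives and let-7i-3p in 8. let-7i-3p failed by DESeq2 and without HCT116 replicate 2, HCT116 replicate 3, HCT-FU-c replicate 2, HCT-FU-c replicate 3 or HCT-Oxa-c replicate 1. The guide strands of the same hairpins, miR-98-5p, let-7d-5p and let-7i-5p, had 1.13, 0.30 and 0.01. The median of the passenger strands was -0.61.

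With the counts of the lines summed, the ratio of guide to passenger strand was higher in replicate 3 than in replicates 1 and 2 for 9 of 10 pairs. Within single lines some of these went the other way, among them let-7b in HCT116 and let-7e and let-7i in HCT-Oxa-c. The count ratio of miR-98-5p to miR-98-3p was 57.9 in replicates 1 and 2 summed and 370 in replicate 3. That of let-7d-5p to let-7d-3p was 5.60 and 12.9, and that of let-7f-5p to let-7f-1-3p was 1456 and 5710. The smallest change was that of let-7b-5p to let-7b-3p, with 21.1 and 21.4, and let-7g-5p to let-7g-3p went the other way, with 6138 and 4079 on 24 and 7 counts of let-7g-3p. The passenger strands had few counts, with 29 of let-7f-1-3p and 46 of miR-98-3p over the 3 replicate 3 libraries, so the ratios that rest on these strands and on let-7g-3p are the least precise of those given.

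Between the lines, edgeR with BH adjustment called 0 of 9 passenger strands in each of the 3 comparisons, and DESeq2 called 0 in each. For HCT-Oxa-c and HCT-FU-c against HCT116 and for the sublines, edgeR called 2.45%, 0.0% and 4.36% of all tested miRNAs and DESeq2 6.27%, 1.09% and 11.7%. At an unadjusted p below 0.05 the count was 0 by both tools for either subline against HCT116, and 1 by edgeR and 2 by DESeq2 for the sublines against each other. By edgeR, 38, 15 and 62 of all 367 tested miRNAs reached that p for HCT-Oxa-c and HCT-FU-c against HCT116 and for the sublines. The number over all tested miRNAs at that p by DESeq2 is not given here, so the DESeq2 counts cannot be judged against it. With the replicate block the counts were 0, 0 and 2 of 9 for HCT-Oxa-c and HCT-FU-c against HCT116 and for the sublines, beside 14.7%, 5.45% and 26.4% of all tested miRNAs. Both strands were lower in HCT-Oxa-c. let-7d-3p had a log2 fold change of -0.57 (SE 0.19) with the block, with an edgeR BH-adjusted p of 0.0289 beside 0.581 without it and 0.0289 to 0.977 over the alternatives, where the block was the 1 of 16 in which it passed. let-7f-2-3p had -1.87 (SE 0.67) with the block, with an edgeR BH-adjusted p of 0.0427 beside 0.196 without it and 0.0427 to 0.493 over the alternatives, where the block was the 1 of 14 in which it passed. With replicates 1 and 2 only, neither passed by edgeR (BH-adjusted p = 0.145 for let-7d-3p and 0.0594 for let-7f-2-3p). let-7f-2-3p had 1 to 36 counts per library.

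The cluster neighbours of let-7 are miR-99a, miR-99b, miR-100, miR-125a and miR-125b, whose hairpins lie beside those of let-7a-2, let-7c or let-7e. Of their strands 9 were in the table and 9 were tested, and miR-100-5p, with a mean of 49535 CPM, ranked above every let-7 guide strand. Without a block edgeR with BH adjustment called 0 of 9 in each comparison of lines. At an unadjusted edgeR p below 0.05 the counts were 0, 0 and 1 for HCT-Oxa-c and HCT-FU-c against HCT116 and for the sublines. Of all 367 tested miRNAs, 38, 15 and 62 reached that p. DESeq2 called 0, 0 and 1, the last of them miR-100-5p. Of all tested miRNAs edgeR called 2.45%, 0.0% and 4.36% in these comparisons, and DESeq2 6.27%, 1.09% and 11.7%. With the block, miR-100-5p was higher in HCT-Oxa-c than in HCT116 (0.61, SE 0.17), with an edgeR BH-adjusted p of 0.0187 beside 0.521 without the block and 0.0187 to 0.834 over the alternatives. With replicates 1 and 2 only it did not pass (0.59, edgeR BH-adjusted p = 0.105). It was the 1 neighbour of 9 called there with the block, beside 14.7% of all tested miRNAs, and 0 were called for HCT-FU-c against HCT116, beside 5.45%. For the sublines against each other 3 were called with the block, beside 26.4% of all tested miRNAs, with miR-100-5p (0.98) and miR-100-3p (0.86) higher and miR-125b-5p (-0.46) lower in HCT-Oxa-c. Over the alternatives the BH-adjusted p from edgeR or DESeq2 ran from 0.000185 to 0.392 for miR-100-5p, from 0.0163 to 0.766 for miR-100-3p and from 0.0304 to 0.981 for miR-125b-5p, which passed in 3, 1 and 1 of 16, the block among them each time. Without HCT-FU-c replicate 3, miR-100-5p also passed without a block (1.29). With replicates 1 and 2 only, the edgeR BH-adjusted p was 0.00334 for miR-100-5p (1.07), 0.0028 for miR-100-3p (1.27) and 0.145 for miR-125b-5p (-0.44). Within replicate number 3 the log2 ratio of miR-100-3p was -0.25. MIRLET7A2 lies in the same host gene as miR-100 and miR-125b-1, and let-7a-5p, which it encodes together with 2 other hairpins, was not called in either comparison. For the replicate number 5 of 9 neighbours were called, beside 45.5% of all tested miRNAs. miR-100-5p (0.55) and miR-99b-3p (0.53) were highest and miR-125b-5p (-1.17) and miR-100-3p (-1.21) lowest in replicate 3 of each line. miR-125a-5p (-0.37) was lowest in replicate 3 of 2 lines and differed by 0.36 between replicates 2 and 1, so that its call is not 1 of replicate 3 alone. Of these 5, miR-125b-5p and miR-100-3p passed in 14 of 14 alternatives, miR-125a-5p in 11, miR-100-5p in 10 and miR-99b-3p in 8. The libraries whose removal took 1 or more of the last 3 below the threshold were HCT116 replicates 2 and 3, HCT-FU-c replicate 3 and HCT-Oxa-c replicates 1 and 3.

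miRNAs of other cell types were also compared between replicate numbers. Of 10 on the list (blood, mesenchyme, muscle, liver and neuron) 9 were in the table, where miR-133a-3p was missing, and 4 were tested. For HCT116 their summed level was 320, 351 and 867 CPM in replicates 1, 2 and 3, for HCT-FU-c 186, 210 and 568 CPM, and for HCT-Oxa-c 218, 304 and 717 CPM. Replicate 3 was the highest library of each line. In those libraries miR-143-3p, a mesenchymal miRNA, was the most abundant, and with a log2 difference of 1.87 it was highest in replicate 3 of each line, while miR-145-5p (-0.64) was lowest there, both called by edgeR with BH adjustment. The other pair of tested miRNAs, miR-451a and miR-122-5p, reached the minimum count of the filter in replicate 3 libraries only, so their calls are no independent evidence and counts are given instead. miR-451a, a red blood cell miRNA, had 0 to 2 counts in each library of replicates 1 and 2 and 70 to 246 in those of replicate 3. miR-122-5p, a liver miRNA, had 0 to 7 counts in the former and 20 to 45 in the latter. The rest of the list had few counts. The blood miRNA miR-223-3p had 0 to 4 counts in the libraries of replicates 1 and 2 and 3 to 13 in those of replicate 3. Its CPM was highest in replicate 3 of each line, but HCT-FU-c had 4 counts in replicate 2 and 3 in replicate 3. miR-142-5p, also of blood, had 0 to 10 and 0 to 2, the muscle miRNA miR-1-3p 0 to 1 and 0 to 6, the blood miRNA miR-150-5p 0 to 2 in either, and the neuronal miR-124-3p 0 to 2 and 0. Of 7 epithelial miRNAs tested 3 were called for the replicate number, each lowest in replicate 3 of each line, beside 45.5% of all tested miRNAs. All 7 had a negative value in replicate 3, with a median of -0.30. The part of these miRNAs in the let-7 differences between replicate numbers was not tested.

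The miRNAs whose levels ran most like those of the family were sought among the 358 tested miRNAs outside it, by Pearson's r of log2 CPM over the 9 libraries. For the summed family they were miR-29b-1-5p (0.967), a passenger strand of the miR-29 family, and miR-196a-5p (0.962) and miR-196b-5p (0.947), which are encoded in HOX gene clusters. For let-7f-5p they were miR-29b-1-5p (0.969), miR-196b-5p (0.967) and miR-26b-5p (0.957). The values are a description without a test, since the replicate 3 libraries stand apart. Over the 6 libraries of replicates 1 and 2 the r with the summed family was 0.938 for miR-29b-1-5p, 0.895 for miR-196a-5p and 0.885 for miR-196b-5p, and that with let-7f-5p was 0.950 for miR-29b-1-5p, 0.932 for miR-196b-5p and 0.833 for miR-26b-5p. Within the family, let-7f-5p ran closest to miR-98-5p (0.987 over 9 libraries) and let-7a-5p (0.946), and had -0.68 with let-7g-5p.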

How the data were processed

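Small RNA sequencing libraries of HCT116, HCT-FU-c and HCT-Oxa-c (3 cultures each) were analysed. Lines and replicate numbers came from the sample labels and were matched to the columns by name. The authors deposited 1 table with a raw read count per mature miRNA and library, and beside each count a normalized signal. Only the count was used, and the deposited signal was not. The submitters' processing notes name CASAVA 1.8, Bowtie 1.1.2, DESeq2 and GRCh38.p7. The mismatches and multiple hits allowed in alignment are not given in the sources used here, so reads of members that differ at 1 base may have been exchanged.

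The 9 guide strands, the lists and the tests were chosen with earlier results of these data known. The main test was the quasi-likelihood F test of edgeR 4.0.16 (R 4.3.3) on all 9 libraries, with TMM normalization, line as factor, filterByExpr (minimum count 10, minimum total 15) and Benjamini-Hochberg adjustment over 367 of 1198 miRNAs at 0.05. Fold changes used a prior count of 0.125 and log2 CPM a prior count of 2. The replicate number was tested with 2 degrees of freedom beside the line. Standard errors were derived from the fold change and its F value. Family sums and shares were described without a test. The fits were also run on simulated counts. These had less spread than the data show without a block, and no replicate offset in the comparison of lines. The simulation therefore does not show how the main test performs on these data. A replicate block was fitted with the replicate numbers of the labels. Correlations of deviations from line means set replicate 3 apart but did not pair replicates 1 and 2 by number.

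Alternatives were DESeq2 1.42.0, RLE size factors, scaling by total counts, TMM factors without the 9 members, no filter, only the compared libraries, the replicate block, a threshold of 0.1, each library left out, and for the sum total counts without miR-21-5p. Replicates 1 and 2 only and DESeq2 with the block were added after seeing the data. Ranges and tallies over the alternatives leave them out. All 9 members were named, with full statistics for the 4 of highest mean CPM. Passenger strands and neighbours were named from their lists, and similar miRNAs as the 3 of highest correlation. Sequences came from RefSeq (GRCh38.p14) and positions from GENCODE 29.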

Additional observations from a re-analysis of the deposited data

How the results depend on the processing

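The number of let-7 guide strands called between the lines stayed at 0 of 9 in the 3 comparisons except under 3 alternatives. Between HCT-Oxa-c and HCT116 it was 1 with the replicate block, and also 1 with replicates 1 and 2 only and with DESeq2 and the block, both chosen after seeing the data. The replicate block also changed the passenger strands called between the sublines to 2, and the cluster neighbours called to 1 between HCT-Oxa-c and HCT116 and to 3 between the sublines. Of all tested miRNAs it called 54, 20 and 97, beside 9, 0 and 16 without it, for HCT-Oxa-c and HCT-FU-c against HCT116 and for the sublines. The cause was not tested.

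Log2 values near 0 changed sign. For let-7g-5p between HCT-Oxa-c and HCT116 they were 0.0172 under RLE size factors and by DESeq2, 0.0161 with only the compared libraries, 0.0072 under TMM without the 9 members, 0.0143 by DESeq2 with the block, 0.0628 without a filter and 0.0663 with replicates 1 and 2 only. Between HCT-FU-c and HCT116, let-7f-5p had -0.0085 with only the compared libraries, and let-7i-5p had 0.14 under total counts and 0.0059 without a filter. Between the sublines let-7i-5p had 0.0182 with replicates 1 and 2 only. For replicate 3 against replicates 1 and 2, let-7i-5p had -0.0146 under RLE size factors and by DESeq2, -0.24 under total counts and -0.15 without a filter.

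With each library left out, let-7f-5p ranged from -0.0780 to 1.42 between HCT-Oxa-c and HCT116, from -0.56 to 1.08 between HCT-FU-c and HCT116 and from -0.0995 to 1.00 between the sublines. let-7g-5p ranged from -0.0879 to 0.18 between HCT-Oxa-c and HCT116, and let-7a-5p from 0.0745 to 0.66 between the sublines. Between HCT-FU-c and HCT116 let-7a-5p ranged from -0.25 to 0.59 and let-7i-5p from -0.12 to 0.0203, and between replicate numbers let-7i-5p ranged from -0.17 to 0.16. The log2 differences between lines in the summed level of the family, and the shares of let-7f-5p, let-7a-5p and let-7g-5p, moved by less than 1 SD under each alternative tried for them. That SD is the spread of single libraries and takes in the offset of replicate 3. Leaving out 1 library cannot move a mean that far, so these checks do not show that the values are stable. Some differences in the summed level changed sign with 1 library left out. The biological coefficient of variation, which limits the differences that 3 cultures per line can show, was 0.458 without the block and 0.174 with it.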
